A study of Mus musculus with 8 samples.

Results

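The genes described here are 5 members of the Ly6 family (Ly6a, Ly6c1, Ly6c2, Ly6e and Ly6i), 3 genes of the monocyte state (Plac8, F13a1 and Vcan) and Adgre1, a gene of mature macrophages. They were taken by gene symbol and are 9 of the 53247 genes in the deposited table. Each symbol had a single row, and all 9 genes passed the filter on low values. The comparison asks whether tumor-associated macrophages (TAMs) that lack miR-21 carried more or less RNA of genes that mark monocytes against those that mark mature macrophages.

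RNA was sequenced from TAMs of s.c. tumors of LLC, the Lewis lung carcinoma line of mouse origin, with 4 WT and 4 miR-21-/- samples. All mice were of the C57/BL6 strain and are given as 10 weeks old in the sample labels, while the series' text gives 8 weeks at implantation, and tumors were taken 14 days after implantation. The sort kept CD45+ cells that were positive for CD11b, MHCII and F4/80. F4/80 is the protein made by Adgre1, so that this gene and the MHC class II genes were tied to the gate. In miR-21-/- mice the microRNA is missing from all cells of the host and not only from macrophages, whereas the implanted LLC cells were the same line in both genotypes. Replicates are numbered as in the sample descriptions, and the miR-21-/- titles carry other numbers. The title of replicate 1 holds 1 and 2, those of replicates 2 and 3 hold 3 and 4, and that of replicate 4 holds a letter. Whether replicate 1 is a pool of mice is not said, and it was treated as 1 sample. Since the labels call the samples biological replicates and say no more of separate mice, p-values measure the spread between these samples.

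Ly6 proteins are small, cysteine-rich proteins that most often sit on the cell surface through a lipid (GPI) anchor, and many Ly6 genes respond to interferons. Ly6C, the product of Ly6c1 and Ly6c2, is high on the classical monocytes that enter inflamed tissue and tumors, low on the nonclassical monocytes that patrol vessels, and is lost as monocytes mature into macrophages. Plac8, F13a1 and Vcan are also high in classical monocytes, and F4/80 rises as the cells mature.

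The sequences that bear on these values are those of the deleted microRNA and of the closely related Ly6 genes. The mature sequence of miR-21a-5p from RefSeq (GRCm38.p6, chr11:86584120-86584141, minus strand) is shown with its seed, bases 2 to 8, in capitals.

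miR-21a-5p: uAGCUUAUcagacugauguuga

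No match to this seed was present in the longest annotated 3′ UTR (GENCODE vM21) of any of the 9 genes, whether over 8, 7 or 6 bases. Among 11480 tested genes with an annotated 3′ UTR, 2.31% held a match over 8 bases, 8.16% a match over the 7 bases that pair with positions 2 to 8, and 27.5% a match over 6 bases. The UTRs of the 4 short Ly6 genes (Ly6a, Ly6c1, Ly6c2 and Ly6i) were 380 to 389 bases long, against 1919 bases for Vcan, so that the chance of a match differs between the genes.

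All 5 Ly6 genes lie in the Ly6 locus on chromosome 15. In the coordinates of the deposited table (GRCm38), Ly6e runs from 74955051 to 74959905 on the plus strand. The other genes are on the minus strand, Ly6i from 74979534 to 74983430, Ly6a from 74994877 to 74998031, Ly6c1 from 75044018 to 75048830 and Ly6c2 from 75108158 to 75111970. The coding sequences of Ly6c1 and Ly6c2 were 97.7% identical, over 384 of 393 bases, and the opening 60 bases of their longest coding exon (GRCm38, minus strand, chr15:75045551-75045610 for Ly6c1 and chr15:75108692-75108751 for Ly6c2) are the same.

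Ly6c1: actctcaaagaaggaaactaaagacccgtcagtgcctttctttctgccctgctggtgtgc
Ly6c2: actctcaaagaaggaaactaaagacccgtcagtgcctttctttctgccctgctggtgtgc

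Ly6a and Ly6i were 86.3% identical over their coding bases, 347 of 402. The same stretch of these genes (chr15:74995420-74995479 for Ly6a and chr15:74980072-74980131 for Ly6i, minus strand) differs at 17 of 60 bases, which are in capitals.

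Ly6a: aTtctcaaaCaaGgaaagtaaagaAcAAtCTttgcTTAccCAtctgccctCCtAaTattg
Ly6i: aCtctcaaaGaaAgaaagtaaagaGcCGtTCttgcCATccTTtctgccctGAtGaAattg

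Ly6e, the most distant of the 5 genes, had a coding identity of 49.8% to 52.7% with the others. How far a read can be placed on 1 gene depends on such stretches and on the read length, which is not given in the sources used here. A window of 50 bases was chosen, and the shares would differ at another length. Of all windows of 50 bases in the annotated transcripts, 32.8% of those of Ly6c1 were also found in another gene, most often Ly6c2 (21.5%). The share was 19.0% for Ly6a, most often with Ly6c1 (15.0%), 14.4% for Ly6c2 and 4.76% for Ly6i, and no window of Ly6e, Plac8, Vcan or Adgre1 was shared. The values of Ly6c1, Ly6c2 and Ly6a are therefore uncertain to the extent that the authors' counting split or dropped such reads.

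Depth was taken from the size of the steps between low values and was 20.2 to 33.4 times 1e+06 reads per sample. The values are CPM, counts per 1e+06 reads, so that 3 reads corresponded to 0.0899 to 0.148 CPM. Of 13850 tested genes, 986 differed between the genotypes with an adjusted p at or under 0.005 in limma and a fold change over 1.5, the threshold used throughout. The median log2 fold change of all tested genes was -0.10, and it was 0.0018 after rescaling by the median of ratios. Higher genes made up 40.6% of the 986, but 60.4% of the genes past the threshold once rescaled by the median of ratios and 59.3% with quantile normalization. Directions are relative to the authors' scaling, and no member changed direction under any of the 20 alternatives. Mir21a was listed at 0 in all 8 samples, so it could not check the genotype labels. All 12 macrophage identity genes, Adgre1 among them, were detected in all samples, with a summed level of 20011 to 23349 CPM in WT TAMs and 19676 to 24427 CPM in miR-21-/- TAMs, which overlap. The sum does not speak for each gene. A negative log2 fold change was found for 8 of the 12 and for 66.8% of all tested genes. Lower without overlap were 2, Adgre1 and Csf1r, and 25.7% of all tested genes. Csf1r, named after its values were seen, fell from 1311 ± 160 to 939 ± 79.1 CPM (limma adjusted p = 0.00538) and did not pass.

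Ly6a and Ly6i, which lie close together in the locus, were higher in miR-21-/- TAMs and were the only members past the threshold. The means of Ly6c1, Ly6c2, Ly6e and Vcan were also higher in miR-21-/- TAMs and those of Plac8 and F13a1 lower, and none of these 6 passed. Adgre1 was lower by a small amount without overlap. The threshold was passed by 7.12% of all tested genes (2.89% higher and 4.23% lower in miR-21-/- TAMs) and by 2 of the 9 members, both higher. The median log2 fold change was 0.38 over the 9 members and 0.70 over the 5 Ly6 genes.

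**Figure D1:**
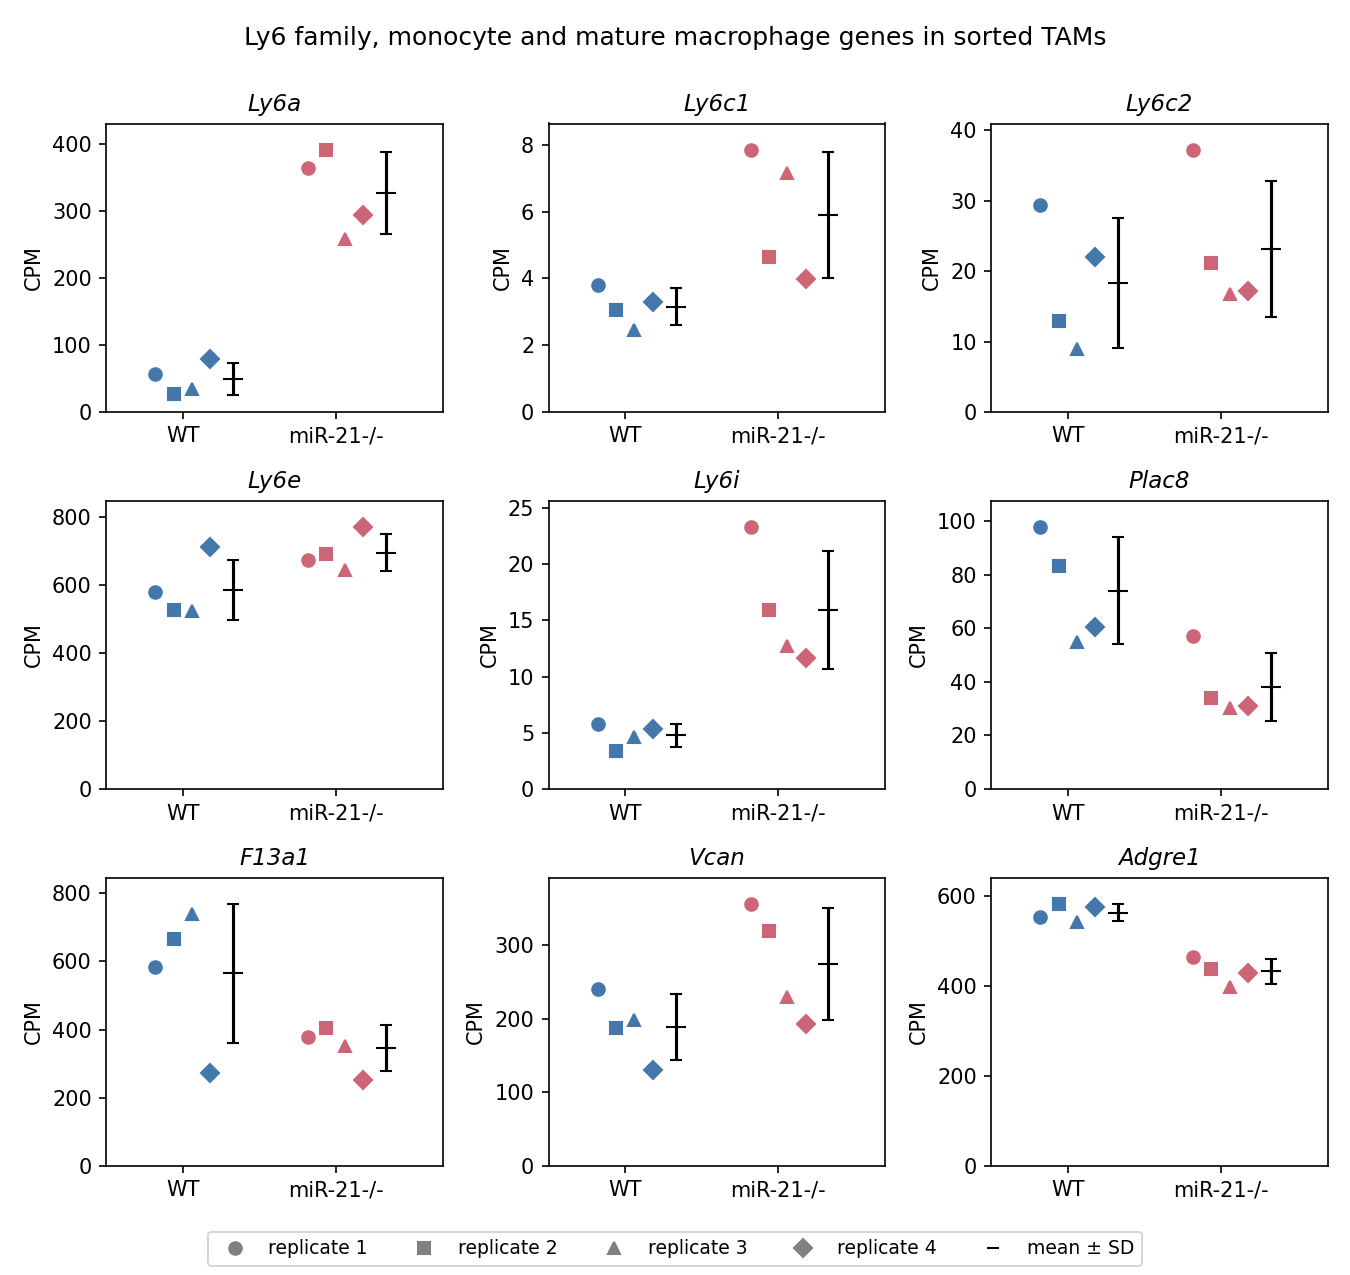
CPM of the 9 genes in each sample (y axis, from 0), by genotype (x axis), with the replicate number as the shape of the point and the mean ± SD beside the points (n = 4 per genotype). Ly6a, Ly6c1 and Ly6i are higher in every miR-21-/- sample than in every WT sample, Adgre1 is lower in every one, and the other genes overlap.

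Ly6a encodes Sca-1, a surface protein of hematopoietic stem cells, lymphocytes and endothelial cells that interferons induce. It was at 56.9, 26.7, 33.8 and 79.7 CPM in WT replicates 1 to 4. In miR-21-/- replicates 1 to 4 it was at 364, 392, 259 and 295 CPM. The lowest miR-21-/- sample stood well above the highest WT sample, although WT values spread 2.98-fold among themselves. Ly6a rose from 49.3 ± 24.0 to 327 ± 61.1 CPM (SD, n = 4 each), 6.64-fold, which is 2.81 on the log2(CPM + 1) scale of the fit (SE 0.29, limma adjusted p = 0.000124). Of the tested genes, 99.9% had a lower log2 fold change. In these bulk libraries, more cells of a kind that carries Ly6a and more RNA per cell cannot be told apart.

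Ly6i encodes a GPI-anchored Ly6 protein found on monocytes and macrophages. WT replicates 1 to 4 held 5.74, 3.37, 4.65 and 5.35 CPM. The miR-21-/- replicates held 23.3, 16.0, 12.7 and 11.7 CPM, in the same order. Every miR-21-/- sample was above every WT sample, and replicate 1 was the highest of both groups. Ly6i rose from 4.78 ± 1.04 to 15.9 ± 5.27 CPM, 3.33-fold, or 1.52 on the log2 scale (SE 0.20, limma adjusted p = 0.000520). Both genes passed under each of the 20 alternatives, with log2 fold changes of 2.57 to 3.08 for Ly6a and 0.79 to 1.69 for Ly6i.

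Ly6c2 encodes the form of Ly6C made by monocytes. Its level was 29.5, 12.9, 8.90 and 22.0 CPM in WT replicates 1 to 4 and 37.2, 21.2, 16.8 and 17.2 CPM in the miR-21-/- replicates. The groups overlapped, and replicate 1 was the highest sample of either genotype. With 18.3 ± 9.23 and 23.1 ± 9.63 CPM, the log2 fold change was 0.38 (95% interval -0.39 to 1.15, adjusted p = 0.423 from limma). The interval takes in both a lower and a higher level. In the fits that each left out 1 sample, the log2 fold change of Ly6c2 lay between 0.099 and 0.64.

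Ly6c1 makes the form of Ly6C that endothelial cells and T cells also carry. It was a minor gene here, at 3.80, 3.07, 2.45 and 3.30 CPM in WT TAMs and 7.86, 4.65, 7.16 and 3.97 CPM in miR-21-/- replicates 1 to 4. These values rest on 49 to 114 reads in the WT libraries and 120 to 211 in the miR-21-/- libraries. All miR-21-/- samples were above all WT samples, but replicate 4 by little. The log2 fold change was 0.70 (standard error 0.19), and the adjusted p of 0.0165 from limma missed the limit, as it did in all alternatives that kept this limit. Ly6a, with which Ly6c1 shares sequence, was also higher in every miR-21-/- sample and at a far higher level, and the part of reads from Ly6a or Ly6c2 in the values of Ly6c1 was not tested.

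The 250 bases before the RefSeq start of Ly6c1 and Ly6c2 were the same at 164 of 216 paired bases (75.9%), with a further 68 columns of the alignment in gaps, 31 of them at its left end, since the windows are offset. They are shown because this pair has nearly the same coding sequence and unlike levels (GRCm38.p6, minus strand, chr15:75048838-75049087 for Ly6c1 and chr15:75111972-75112221 for Ly6c2). Capitals mark a match to GAGGAA, the core letters that the myeloid factor PU.1 binds, on either strand.

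Ly6c1 promoter: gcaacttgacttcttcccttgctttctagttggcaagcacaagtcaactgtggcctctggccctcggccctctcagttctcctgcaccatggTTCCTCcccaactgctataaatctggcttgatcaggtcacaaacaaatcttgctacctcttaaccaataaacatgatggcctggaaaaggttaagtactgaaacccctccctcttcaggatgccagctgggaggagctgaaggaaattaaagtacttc
Ly6c2 promoter: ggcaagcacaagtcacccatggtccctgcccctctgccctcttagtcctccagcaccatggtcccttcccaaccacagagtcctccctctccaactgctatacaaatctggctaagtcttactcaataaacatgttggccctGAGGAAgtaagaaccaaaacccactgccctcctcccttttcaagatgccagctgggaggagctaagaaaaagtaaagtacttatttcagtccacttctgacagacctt

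Each promoter held 1 match. These letters are present in 23.3% of all 32851 promoters of the RefSeq table over the same 250 bases. Promoters were at hand for 5 members. Plac8 had 2 matches, F13a1 1 match and Vcan none. TTCNNNGAA, the core of a STAT site, and the core of the interferon-stimulated response element (GAAA, any 2 bases, GAAA) were searched on both strands, and neither was found in any of the 5 promoters, against 7.02% and 2.98% of all promoters. The promoters of Ly6a, Ly6e, Ly6i and Adgre1 were not used here.

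Ly6e encodes a widely expressed Ly6 protein that interferons induce. Per length it was the most abundant Ly6 gene in WT TAMs, and its level was 579, 525, 522 and 712 CPM in WT TAMs and 673, 692, 644 and 771 CPM in miR-21-/- replicates 1 to 4. Only WT replicate 4 reached into the range of the miR-21-/- samples. The log2 fold change was 0.26 (95% interval 0.027 to 0.49, adjusted p = 0.0772 from limma), and no alternative took it past the threshold.

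Plac8 encodes a small cysteine-rich protein of the cytoplasm that is abundant in classical monocytes and neutrophils. On chromosome 5 (100553725 to 100572245), it was at 98.0, 83.2, 54.8 and 60.5 CPM in WT replicates 1 to 4. The miR-21-/- replicates were at 57.0, 34.0, 30.1 and 30.9 CPM. Replicate 1 of the miR-21-/- samples stood apart from the others and reached the range of WT, while the remaining 3 were below every WT sample. The mean was 74.2 ± 20.1 CPM in WT TAMs and 38.0 ± 12.8 CPM in miR-21-/- TAMs, or -0.96 on the log2 scale (SE 0.22). The adjusted p of 0.00867 from limma missed the limit of 0.005. Plac8 passed without miR-21-/- replicate 1, with a log2 fold change of -1.16 (limma adjusted p = 0.00207), and with weights that limma estimated for each sample (-1.11, adjusted p = 0.00199 from limma).

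F13a1 encodes the A subunit of coagulation factor XIII, a transglutaminase that crosslinks fibrin, and is carried by monocytes and by many tissue macrophages. Located on chromosome 13 (36867178 to 37050244), it was at 584, 665, 738 and 273 CPM in WT TAMs and 380, 405, 352 and 251 CPM in miR-21-/- replicates 1 to 4. WT replicate 4 lay within the range of the miR-21-/- samples and far below the remaining WT samples, and replicate 4 was the lowest of both genotypes. The log2 fold change was -0.63 (95% interval -1.25 to -0.0068, adjusted p = 0.104 from limma). Without WT replicate 4 it was -0.95 with an adjusted p of 0.00172 from limma, past the threshold.

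Vcan encodes versican, a large proteoglycan of the extracellular matrix that monocytes and fibroblasts secrete. It lies on chromosome 13 (89655312 to 89742509). Levels were 240, 188, 199 and 131 CPM in WT TAMs and 357, 319, 229 and 192 CPM in miR-21-/- replicates 1 to 4. The groups overlapped, with miR-21-/- replicates 3 and 4 within the WT range, and replicate 1 was the highest and replicate 4 the lowest of each genotype. The log2 fold change of 0.52 (95% interval 0.044 to 1.00, adjusted p = 0.0826 from limma) did not pass under any alternative.

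Thus 3 genes that share a monocyte state had means on both sides of WT, with log2 fold changes from -0.96 for Plac8 to 0.52 for Vcan. None passed, while 7.12% of all tested genes did. Leaving out WT replicate 4 and miR-21-/- replicate 1 together, chosen after their values were seen, put Plac8 (-1.25) and F13a1 (-0.998) past the threshold and left Vcan at 0.22 (limma adjusted p = 0.358).

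Adgre1, on chromosome 17 (57358686 to 57483529), encodes the adhesion receptor F4/80. It was at 553, 583, 542 and 576 CPM in WT TAMs and 466, 437, 399 and 430 CPM in miR-21-/- replicates 1 to 4. The samples of each genotype lay close together, and all miR-21-/- samples were below all WT samples. The level was 564 ± 19.4 CPM in WT TAMs and 433 ± 27.5 CPM in miR-21-/- TAMs, 1.30-fold higher in WT, or -0.38 on the log2 scale (SE 0.062, limma adjusted p = 0.00140). The p was under the limit and the fold change was under 1.5-fold. The p went over the limit after rescaling by the median of ratios (log2 fold change -0.26, limma adjusted p = 0.0128), with no filter (0.00603), without WT replicate 2 (0.00583) and without miR-21-/- replicate 3 (0.00518). Cells had been gated on the F4/80 protein, and the part of the gate in this difference was not tested.

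Without overlap between genotypes were 4 of the 9 members, Ly6a, Ly6c1 and Ly6i higher and Adgre1 lower, while 35.1% of all tested genes did not overlap (9.44% higher and 25.7% lower). At an adjusted p of 0.05 from limma and no limit on the fold change, 5 of the 9 members passed, Ly6a, Ly6c1 and Ly6i higher and Plac8 and Adgre1 lower, and so did 36.0% of all tested genes (9.49% higher and 26.5% lower).

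Levels were compared between genes only after division by the annotated length of the exons, as mean CPM per kb. In WT TAMs the order was Adgre1 (174 CPM per kb), Ly6e (154), F13a1 (83.8), Plac8 (46.6), Ly6a (40.9), Vcan (13.1), Ly6c2 (6.69), Ly6i (4.13) and Ly6c1 (1.88). Of these neighbors, Ly6e with F13a1, Ly6a with Vcan and Ly6i with Ly6c1 did not overlap in their 4 samples, and the other neighbors overlapped. In miR-21-/- TAMs Ly6a had the highest mean level, 272 CPM per kb, above Ly6e (184), Adgre1 (134), F13a1 (51.5), Plac8 (23.9), Vcan (19.0), Ly6i (13.8), Ly6c2 (8.43) and Ly6c1 (3.53). There the levels of Plac8 and Vcan, of Vcan and Ly6i, and of Ly6i and Ly6c2 overlapped, and other neighbors in the order did not. Ly6a thus stood below 4 of the 9 genes in WT and highest in miR-21-/- TAMs, and Ly6c1 was lowest in both.

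Samples of the same genotype differed in several members at once. WT replicate 1 was the highest WT sample for 5 of the 9 genes (Ly6c1, Ly6c2, Ly6i, Plac8 and Vcan). The same 5 genes and Adgre1 were highest in miR-21-/- replicate 1 among the miR-21-/- samples. WT replicate 3 and miR-21-/- replicate 3 were each the lowest of their genotype for 5 genes, among them Ly6c2, Ly6e, Plac8 and Adgre1 in both. WT replicate 4 was lowest for F13a1 and Vcan and highest for Ly6a and Ly6e. The replicate numbers were not found to pair the samples over all genes.

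**Figure D2:**
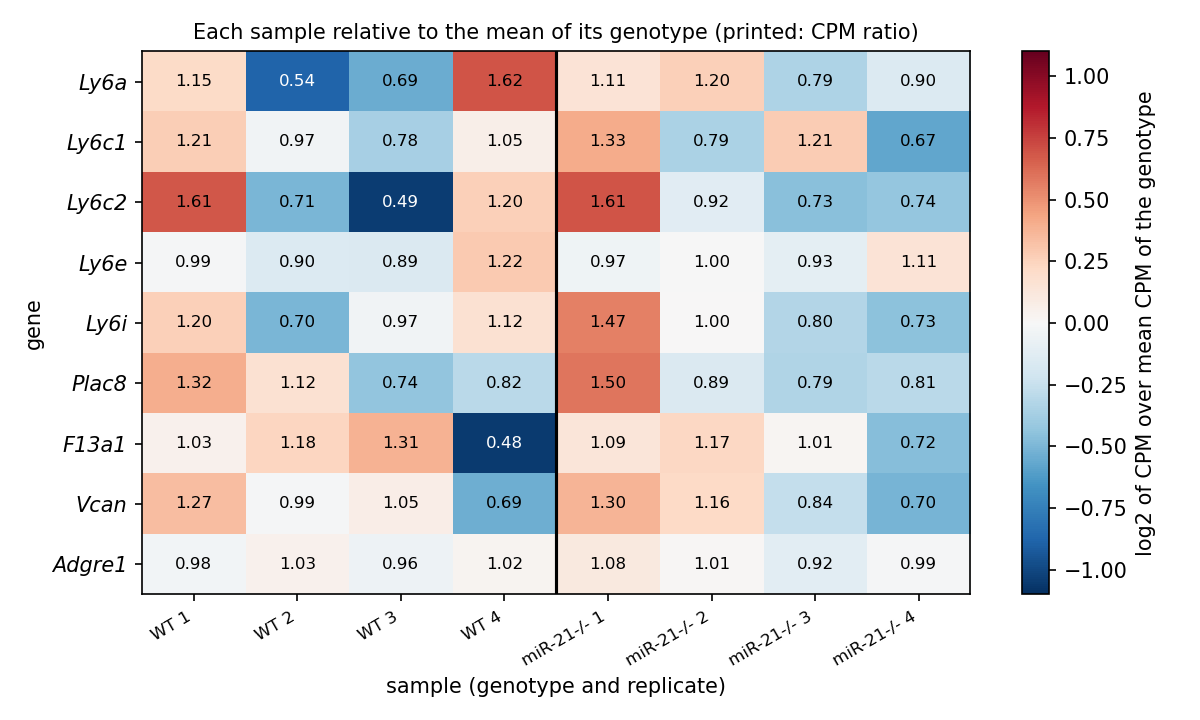
Ratio of the CPM of each sample (x axis) to the mean CPM of its genotype for the 9 genes (y axis), printed in each cell, with its log2 as the color, red above and blue below the mean. Ly6c2 and Plac8 are highest in replicate 1 of both genotypes, F13a1 is at 0.48 of the mean in WT replicate 4, and Adgre1 stays between 0.92 and 1.08.

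The genes whose profile over the 8 samples was most like that of Ly6a were Tgtp1, which encodes an interferon-induced GTPase, Slc4a11, a membrane transporter, and Gm12185. Their centred log2 values differed from those of Ly6a by a mean of 0.33 per sample. Closest to Ly6i were Acod1, the enzyme that makes itaconate (0.12), AA467197 (0.13) and Il1rn, the antagonist of the IL-1 receptor (0.13). Acod1 was at 94.7 ± 19.4 CPM in WT TAMs and 312 ± 84.5 CPM in miR-21-/- TAMs, with its highest level, like Ly6i, in miR-21-/- replicate 1. These genes are a description of likeness over 8 samples in 2 groups, without a test.

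Of 29 other genes of the Ly6 and uPAR superfamily in the table, 3 passed the filter on low values. Plaur, the urokinase receptor, rose from 99.0 ± 15.4 to 156 ± 8.99 CPM (log2 fold change 0.66, limma adjusted p = 0.00100). Its call was lost without WT replicate 2 (log2 fold change 0.58, just under the limit), with no filter on low values (limma adjusted p = 0.00699) and without both WT replicate 4 and miR-21-/- replicate 1 (0.00634). Cd59a, which encodes an inhibitor of complement, fell from 4.12 ± 0.909 to 2.04 ± 0.300 CPM (log2 fold change -0.74, limma adjusted p = 0.00308). That call was lost in each fit that left out 1 sample other than WT replicate 4 (adjusted p of 0.00583 to 0.0109 from limma). It stood in 7 of the 19 alternatives that tested Cd59a. Ly6g, a neutrophil gene of the same locus, was at 1.91 ± 0.711 and 2.59 ± 0.756 CPM, and did not pass (limma adjusted p = 0.270).

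Further genes of classical monocytes lay on both sides of WT. Of 20 listed genes 19 were tested, 12 with a positive and 7 with a negative log2 fold change, where 33.2% of all tested genes had a positive one, and the median was 0.23 against -0.10 over all tested genes. The threshold was passed by 2 of the 19, both higher, and by 7.12% of all tested genes. Tgfbi, which encodes a matrix protein that TGF-β induces, rose from 1892 ± 192 to 3134 ± 265 CPM (log2 fold change 0.73, limma adjusted p = 0.000670). It did not pass after quantile normalization (0.50 on the log2 scale, under the fold change limit) or without a filter on low values (limma adjusted p = 0.00643). Thbs1, the gene of thrombospondin 1, rose from 1230 ± 354 to 2631 ± 613 CPM (log2 fold change 1.12, limma adjusted p = 0.00328). Its call was lost by both of these alternatives (limma adjusted p = 0.0104 and 0.0206) and without WT replicate 2 or 4 or without miR-21-/- replicate 1, 2 or 3 (adjusted p of 0.00727 to 0.0107 from limma). The call of Thbs1 was also lost without the intensity trend (limma adjusted p = 0.00571) and without both WT replicate 4 and miR-21-/- replicate 1 (0.0133). It stood in 11 of the 20 alternatives. Klf4, a transcription factor of monocytes, stood lowest on the list, at -1.13 on the log2 scale (limma adjusted p = 0.00535), and passed without WT replicate 2 (-1.31) or miR-21-/- replicate 1 (-1.28). Ccr2, the chemokine receptor that brings classical monocytes into tissue, was chosen after its values were seen and was at 440 ± 155 and 355 ± 91.3 CPM (limma adjusted p = 0.351).

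Of 10 tested genes of nonclassical monocytes, 3 passed the threshold, all lower, where 4.23% of all tested genes did. A negative log2 fold change was found for 8 of the 10 and for 66.8% of all tested genes, and the median of the list was -0.72. Cx3cr1, the fractalkine receptor, was at 40.5, 77.3, 46.8 and 26.6 CPM in WT TAMs and 3.47, 2.37, 1.96 and 2.98 CPM in miR-21-/- replicates 1 to 4, far apart in every sample (log2 fold change -3.64). Ace, the angiotensin-converting enzyme, fell from 68.8 ± 13.2 to 13.1 ± 3.93 CPM (log2 fold change -2.33, limma adjusted p = 4.91e-05). Both passed under all 20 alternatives. Eno3, a muscle-type enolase, fell from 13.3 ± 2.59 to 7.81 ± 0.754 CPM (log2 fold change -0.68, limma adjusted p = 0.00329), and its call was lost in each fit that left out 1 sample other than WT replicate 1 (adjusted p of 0.00619 to 0.0119 from limma). The call was also lost after the median of ratios (limma adjusted p = 0.00727) and quantile normalization (0.00990), and it stood in 8 of the 20 alternatives. Itgal, an integrin subunit, stood highest on this list, at 0.28 (limma adjusted p = 0.0222).

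Beside Adgre1, 22 of 24 other genes of mature macrophages were tested, with a median of -0.033 against -0.10 over all tested genes. Positive values were found for 10 of the 22 and for 33.2% of all tested genes. Of the 22, 1 passed the threshold, which 7.12% of all tested genes passed. This gene was Fcgr1, the high-affinity IgG receptor. It rose from 273 ± 35.4 to 458 ± 45.8 CPM (log2 fold change 0.75, limma adjusted p = 0.000561). Cd163, the scavenger receptor of hemoglobin complexes, had the lowest value, -1.97, with an adjusted p of 0.0222 from limma that became 0.000597 without WT replicate 4. That library held 15.6 CPM of Cd163, where the remaining WT libraries held 68.4 to 115 CPM, and F13a1 was also at its lowest among the WT samples.

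Since interferons induce Ly6a and Ly6e, genes induced by IFN-γ and by type I interferons were set beside them. Of 20 IFN-γ genes, 19 passed the threshold, all of them higher, where 2.89% of all tested genes passed as higher, and the median of the 20 was 1.60 on the log2 scale, against 2.81 for Ly6a and 0.26 for Ly6e. Gbp2, Gbp4 and Tgtp1, all interferon-induced GTPases, had log2 fold changes of 2.62, 2.83 and 3.38. The gene that did not pass was Ciita, the coactivator of MHC class II genes, at 195 ± 39.8 and 182 ± 61.0 CPM (log2 fold change -0.14, limma adjusted p = 0.659). Of 18 genes induced by type I interferons, 0 passed the threshold in limma, against 7.12% of all tested genes in either direction, 7 had an unadjusted p under 0.05, which 46.4% of all tested genes had, and the median was 0.14. Rsad2, an antiviral enzyme, had the highest value of these (0.75), and Oas2, a sensor of double-stranded RNA, the lowest (-0.47). This count changed with the processing. Oasl2 passed after the median of ratios, Oasl2 and Rtp4 without WT replicate 1, and Oasl2, Rsad2 and Rtp4 with sample weights from limma. The lists were written with results of these samples known, so their direction is not independent evidence.

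**Figure D3:**
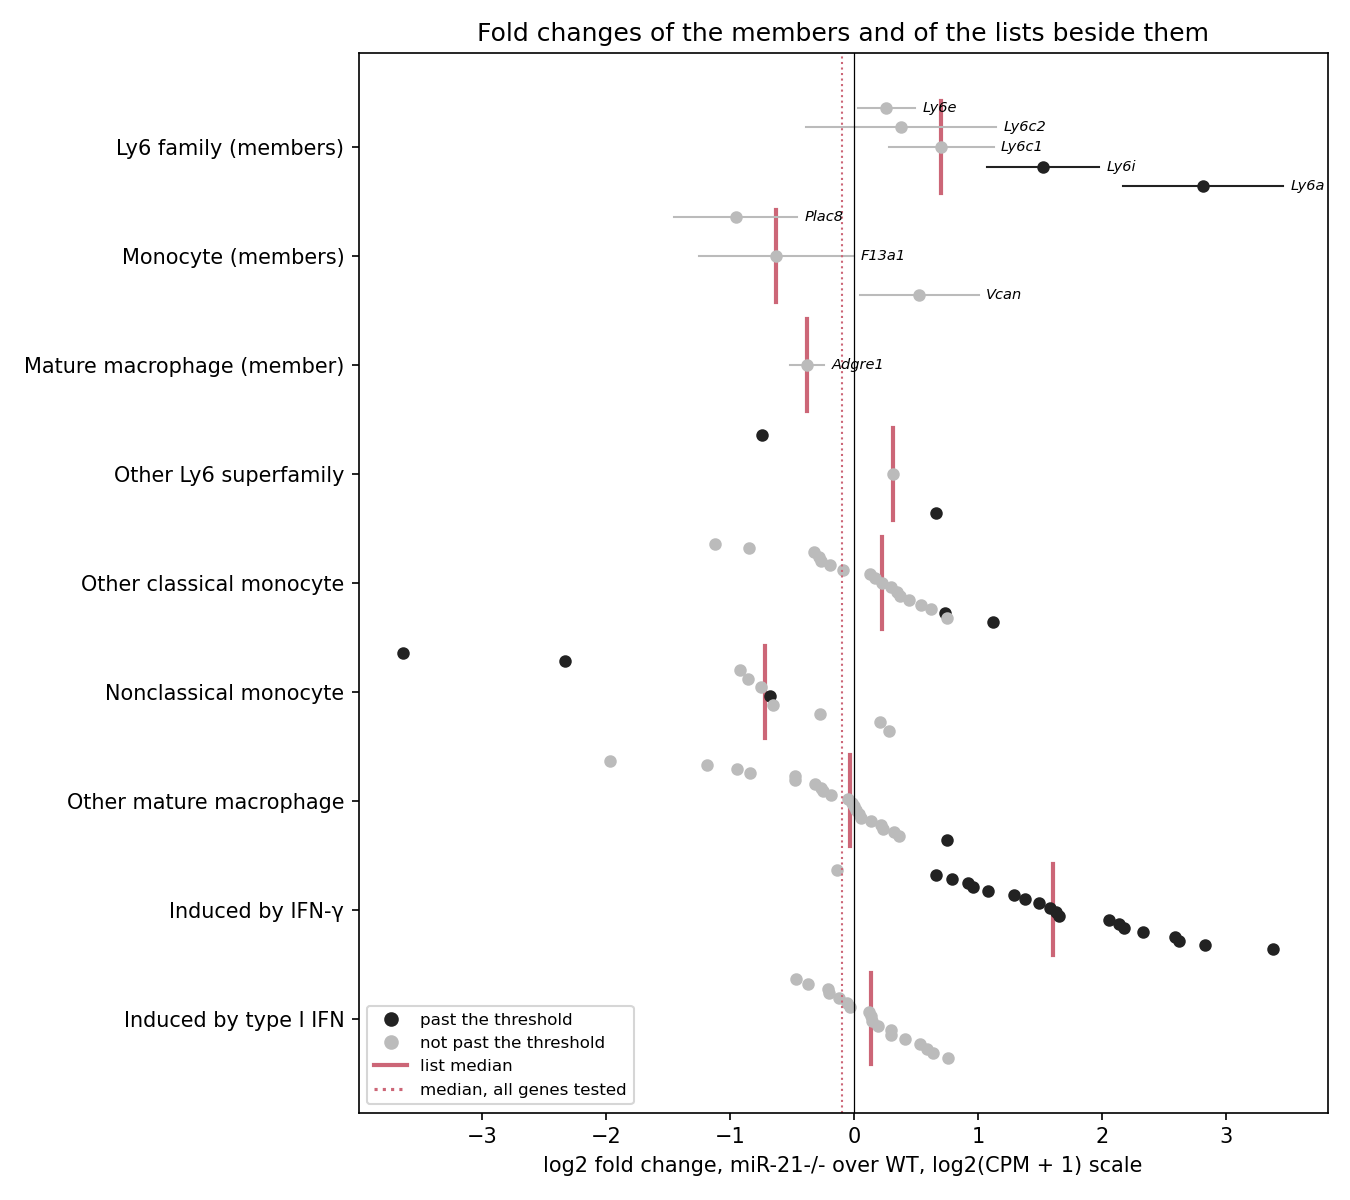
Log2 fold change of miR-21-/- over WT on the log2(CPM + 1) scale (x axis) for the members, with names and 95% intervals from limma, and for the tested genes of each list (y axis), 1 point per gene. Black points passed the threshold, the red bar is the median of the list, and the dotted line is the median of all tested genes, -0.10. Ly6a (2.81) and Ly6i (1.52) are the black points among the members.

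Markers of other cell types were read in the same libraries, since several members are not particular to macrophages. Ly6a and Ly6c1 are carried by endothelial cells and T cells. The summed level of 8 endothelial genes was 155 to 305 CPM in WT TAMs and 203 to 293 CPM in miR-21-/- TAMs, with Tek, Cldn5 and Emcn under 1 CPM in all samples. For 10 T cell genes it was 25.5 to 46.1 and 12.0 to 44.8 CPM, and for 6 NK cell genes 4.26 to 12.6 and 7.95 to 23.3 CPM, with Ncr1, Klrb1c and Eomes under 1 CPM in all samples. Within the T cell list the members differed. Cd8a was at 1.92 ± 0.413 and 6.71 ± 3.66 CPM without overlap (log2 fold change 1.28, limma adjusted p = 0.00804), and Cd4 fell from 16.6 ± 10.0 to 2.19 ± 1.15 CPM (-2.35, limma adjusted p = 0.00206). Of the 3 NK cell genes tested, Prf1 (1.16, limma adjusted p = 0.0261) and Nkg7 (0.91, limma adjusted p = 0.0377) were above WT in their means and did not pass the threshold. These 4 genes were named after their values were seen. The 3 sums overlapped between the genotypes, as did those of 10 dendritic cell genes and 6 platelet genes, and the part of these cells in the values of Ly6a and Ly6c1 was not tested.

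Markers of neutrophils, which also carry Plac8, had lower sums in miR-21-/- TAMs. The sum of 12 genes was 823 to 1238 CPM in WT TAMs and 609 to 790 CPM in miR-21-/- TAMs without overlap. Camp, Elane and Mpo were under 1 CPM in all samples. Of the 9 that were tested, 1 passed the threshold and was lower, where 4.23% of all tested genes passed as lower. This was Mmp8, named after its values were seen. A negative log2 fold change was found for 7 of the 9 and for 66.8% of all tested genes, and 2 had a positive one, Ly6g (0.31) among them. Lower without overlap were 2 of the 9 and 25.7% of all tested genes. Fibroblast genes, 8 in number, summed to 70.5 to 148 and 18.8 to 51.0 CPM, and 4 of the 7 that were tested passed the threshold as lower. Lower without overlap were also the sums of 6 B cell genes (40.6 to 59.6 and 26.0 to 38.8 CPM), 7 plasmacytoid dendritic cell genes (150 to 165 and 105 to 122 CPM), 6 epithelial genes (18.8 to 24.8 and 12.7 to 17.9 CPM) and 6 erythroid genes (93.3 to 214 and 24.3 to 34.7 CPM). Their part in the lower values of Plac8, F13a1 and Adgre1 was not tested.

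**Figure D4:**
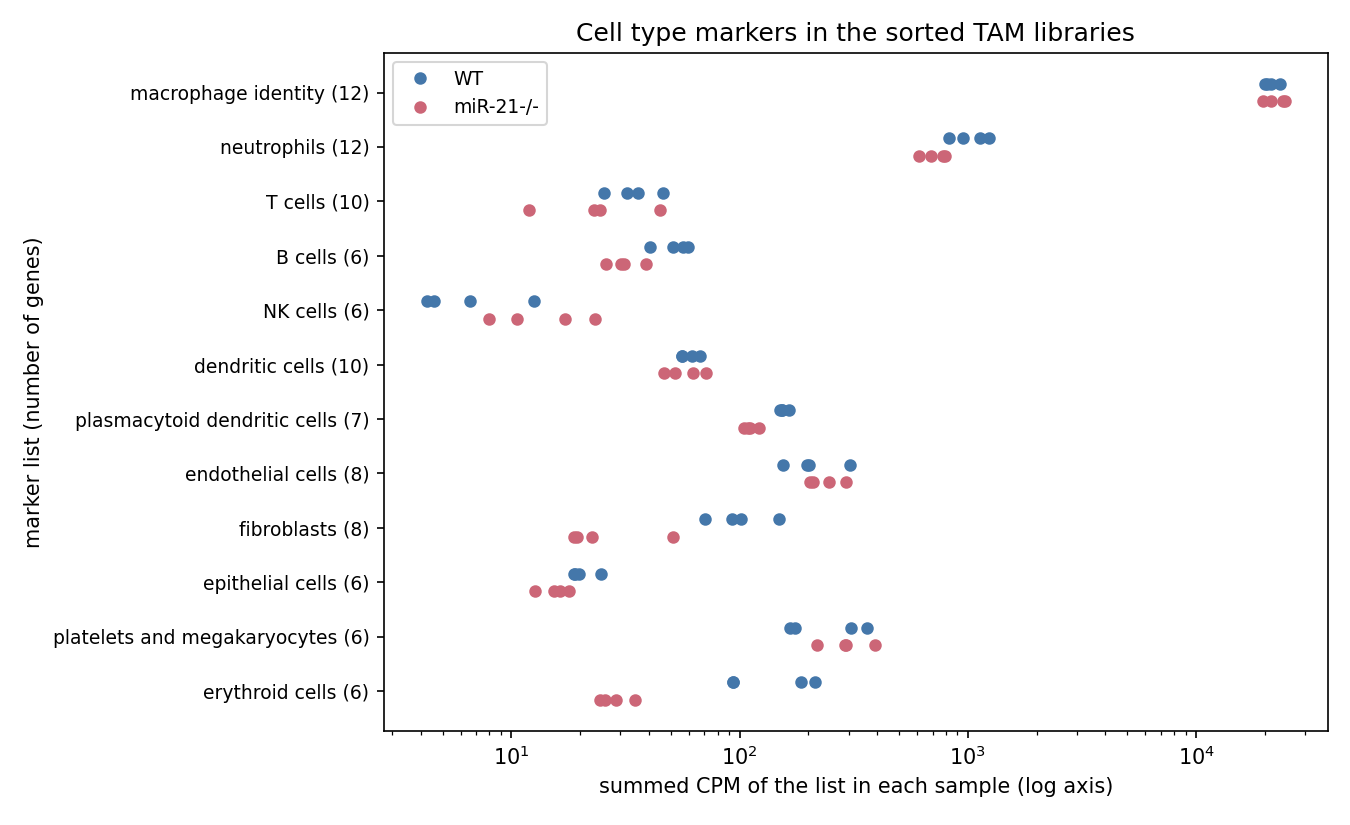
Summed CPM of each list of cell type markers (y axis, with the number of genes) in each sample (x axis, log axis), blue for WT and red for miR-21-/-, 1 point per sample. Macrophage identity genes sum to 19676 to 24427 CPM and overlap between genotypes, and the sums for neutrophils, B cells, plasmacytoid dendritic cells, fibroblasts, epithelial cells and erythroid cells are lower in every miR-21-/- sample.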

How the data were processed

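The authors sorted TAMs, made mRNA libraries and deposited 1 table of CPM values (counts per 1e+06 reads) for 53247 genes and 8 samples, each raised by 0.0001, which was subtracted here. The submitters' processing notes name STAR, Partek 7.0 and mm10. The counting rule, annotation, strand and read length are not given in the sources used here, so reads of overlapping or near-identical genes may be split. Starts in the table matched GENCODE vM21 (GRCm38) for 97.1% of the genes found in both and for 8 of the 9 members (not Adgre1). Ends are printed 1 base below the table, which places them on the annotation for the same 8.

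The values, as log2(CPM + 1), were fitted with limma 3.58.1 in R 4.3.3 (eBayes with an intensity trend), after a filter that kept the 13850 genes whose mean reached 1 per 1e+06 of the column totals. Adjusted p-values are Benjamini-Hochberg over all tested genes, and genes passed at or under 0.005 with a fold change over 1.5, the study's limits. Fold changes on this scale understate those of low genes. Sums of paralog pairs were tested with two-sided exact permutation tests over 35 splits. Sequences were read from RefSeq and GENCODE, and figures drawn with matplotlib 3.10.9. The fit was tested on simulated data.

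Precision is limited by 4 samples per genotype and, at low CPM, by a depth of 20.2 to 33.4 times 1e+06 reads per sample. The members and lists were chosen with earlier results of these data known. Named are all members, other Ly6 superfamily genes past the filter, per list the up to 3 largest rises and falls past the threshold and the highest and lowest value, and the 3 genes nearest in profile to each member past the threshold. Other genes named are marked. Alternatives were other pseudocounts, filters, scalings, weights, limits, a replicate block and leaving out samples.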

Additional observations from a re-analysis of the deposited data

Results flagged for a closer look

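Within groups of 4 samples, 7 of 88 groups of values held a sample whose gap to its nearest neighbor, relative to the range of the group, was beyond Dixon's 95% critical value, where chance gives about 1 in 20 groups. The level of Plac8 in miR-21-/- replicate 1 was 57.0 CPM, while the remaining miR-21-/- samples had 30.1 to 34.0 CPM. In the same library, Slc4a11, close to Ly6a in profile, was at 142 CPM, Rsad2 at 154 CPM and Oas2 at 96.2 CPM, each the highest of its genotype. That sample is the one whose title joins a pair of numbers, and what sets it apart was not tested. The summed fibroblast genes stood at 51.0 CPM in miR-21-/- replicate 2. In WT replicate 2, the summed genes of plasmacytoid dendritic cells were at 165 CPM and those of epithelial cells at 24.8 CPM. Of these lists, 4 of 7 and 3 of 6 genes were under 1 CPM in all samples, so the sums rest on the others.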

How the results depend on the processing

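Of the 9 members, Ly6a and Ly6i passed under all 20 alternatives and no member reversed. The number of members past the threshold was 5 with an adjusted p limit of 0.05 and no fold change limit, 4 without both WT replicate 4 and miR-21-/- replicate 1 (an alternative chosen after the data were seen), and 2 to 3 with any 1 sample left out. Other Ly6 superfamily genes past the threshold numbered 1 with a pseudocount of 10, a filter of 5 per 1e+06, quantile normalization, the median of ratios, or both samples left out, 0 without a filter on low values, and 0 to 2 with 1 sample left out. Other classical monocyte genes numbered 0 without a filter, 1 after quantile normalization (Mgst1) or without the trend (Tgfbi), 4 with sample weights, 5 after the median of ratios, 8 with the limit of 0.05, and 1 to 3 with 1 sample left out. Nonclassical genes numbered 7 with the limit of 0.05 and 2 to 3 with 1 sample left out. Other mature macrophage genes numbered 2 after quantile normalization, 3 with sample weights, 9 with the limit of 0.05, 5 with both samples left out, and 1 to 4 with 1 sample left out. The interferon lists held 18 to 21 genes past the threshold with 1 sample left out. Over all tested genes, the 986 became 452 with a pseudocount of 10, 517 without a filter (30619 genes tested), 1982 without the fold change limit, 4982 with the limit of 0.05, and 684 to 1002 with 1 sample left out. The causes of these shifts were not tested.

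The shared replicate numbers of the descriptions were not found to pair the samples. Deviations of same-numbered samples correlated by -0.14 to 0.22 over all tested genes, with 1 of 4 pairs over 0.1, and 3 of 8 samples correlated best with their own number. By the numbers in the titles, WT replicate 3 correlated with miR-21-/- replicate 2 by 0.14 and WT replicate 4 with miR-21-/- replicate 3 by 0.032. With the replicate number as a block, 922 genes passed, and so did Plac8 (limma adjusted p = 0.000387) and Oasl2, Rsad2 and Rtp4 of the type I interferon list, with 3 members, 1 other Ly6 gene, 5 other classical monocyte genes and 3 other mature macrophage genes past the threshold. Ly6a made up most of its sum with Ly6i and Ly6c2 most of its sum with Ly6c1, so that these sums (two-sided exact permutation p = 0.0286, the smallest possible, and 0.343) repeat Ly6a and Ly6c2 and do not bear on Ly6i or Ly6c1. Count tests were not run, since 74.4% to 75.6% of the low values were whole reads within 0.05. Each symbol had 1 row, so summing rows of a symbol changed nothing.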
